A study of Mus musculus with 6 samples.

Results

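The 4 assays for miR-103, miR-107, miR-33 and miR-378, a group of miRNAs best known from lipid and glucose metabolism, were followed in mouse prefrontal cortex. They were chosen by name from the 750 miRNA assays of a TaqMan OpenArray rodent panel, with species prefix, arm mark and the letter after miR-33 ignored. They are hsa-miR-103 (assay 000439), hsa-miR-107 (000443), hsa-miR-33a# (002136) and hsa-miR-378 (000567). The prefix hsa marks a human design, # marks the less abundant strand of the hairpin, and the suffix A or B of the identifier is here called the pool. The assays for miR-103 and miR-107 are in pool A and those for miR-33a# and miR-378 in pool B. None of the 4 targets the miR-33 guide strand.

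The mice were males aged 5 months that received no drug, 3 of the inbred strain BTBR T+ Itpr3tf/J, a model of autism-like behaviour, and 3 wild-type C57BL/6J as controls. The strain background field reads C57BL/6J for both groups, while the genotype, title and source fields give BTBR for the first. Whole prefrontal cortex was taken, with 1 sample per mouse, so each replicate is a separate animal. Each PCR was read as a cycle threshold, that is, the cycle in which fluorescence passed a set level. Later thresholds mean less RNA, and 1 cycle is about a 2-fold difference. A value of 40 was read as undetermined.

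A miRNA guides a silencing complex to mRNAs that pair with its seed, the bases near its 5′ end. miR-33 lies in an intron of Srebf2, the gene of a transcription factor that drives cholesterol synthesis, and represses the cholesterol exporter ABCA1. miR-103 and miR-107 lie in introns of pantothenate kinase genes, whose enzymes start coenzyme A synthesis, and are known to lower insulin sensitivity in liver and fat. miR-378 lies in a gene of the PGC-1 coactivator family and is known from mitochondrial and fat metabolism.

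The mature mouse sequences below are from RefSeq (GRCm38.p6), 5′ to 3′, with the seed, bases 2 to 8, in capitals. They are shown because miR-103 and miR-107 are almost the same molecule, and because the strand assayed for miR-33 has another seed than its guide. The files give no assay sequences, so these are the mouse miRNAs that bear the assays' names.
mmu-miR-103-3p: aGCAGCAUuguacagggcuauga
mmu-miR-107-3p: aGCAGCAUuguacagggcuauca
mmu-miR-33-5p (guide, no assay): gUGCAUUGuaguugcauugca
mmu-miR-33-3p (the # strand): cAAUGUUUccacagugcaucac
miR-103 and miR-107 share 22 of 23 bases and the whole seed GCAGCAU. They differ by G22C, counted from 1 at the 5′ end of miR-103, the base next to the 3′ end. An assay that separates them can use that 1 base alone.

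The hairpins, also from RefSeq, show where each assayed strand lies, in capitals. The same miR-103 strand comes from 2 genes, so its assay cannot tell them apart.
Mir103-1, chr11:35782396-35782481, plus strand, within Pank3: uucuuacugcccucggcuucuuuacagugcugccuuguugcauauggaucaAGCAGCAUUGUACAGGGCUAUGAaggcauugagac
Mir103-2, chr2:131288052-131288137, plus strand, within Pank2: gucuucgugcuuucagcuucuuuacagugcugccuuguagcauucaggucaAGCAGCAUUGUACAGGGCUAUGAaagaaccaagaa
Mir107, chr19:34820687-34820773, minus strand, within Pank1: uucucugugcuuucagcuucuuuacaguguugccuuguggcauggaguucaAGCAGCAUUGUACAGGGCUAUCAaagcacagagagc
Mir33, chr15:82198122-82198190, plus strand, within Srebf2: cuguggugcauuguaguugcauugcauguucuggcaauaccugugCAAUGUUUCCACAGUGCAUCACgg

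Between 352 and 409 of the 750 assays were detected in BTBR samples, against 296 to 306 in C57BL/6J samples. The gap lay in pool A, with 56.8% to 65.0% of its 377 assays detected in BTBR and 46.7% to 47.7% in C57BL/6J, while of the 373 assays of pool B 30.8% to 44.0% were detected in BTBR and 31.9% to 34.9% in C57BL/6J. Over the 189 assays with 6 normalized values, BTBR replicate 3 correlated at r = 0.938 and 0.918 with the other BTBR samples. With the C57BL/6J samples it correlated more closely, at 0.945 to 0.966. Correlations among the other samples are not given here. The neuronal markers did not read alike. Early in every sample were miR-9# at 13.74 to 14.09 cycles in BTBR and 13.49 to 13.76 in C57BL/6J, and miR-128a at 14.47 to 14.91 in BTBR and 13.81 to 13.99 in C57BL/6J. Against that, miR-124a read 19.79 to 23.29 in BTBR and 24.44 to 31.40 in C57BL/6J, miR-9 read 16.76 and 13.90 in BTBR replicates 1 and 2 and 40 in the other 4 mice, and miR-124# read 40 in BTBR and 13.68 to 22.73 in C57BL/6J. The liver miRNA miR-122, a marker of lipid-handling tissue outside the brain, came up at 29.01 to 30.54 cycles in BTBR and at 26.77 and 30.92 in C57BL/6J replicates 2 and 3, and was undetermined in the other. The red blood cell miRNA miR-451 stood at 19.74 to 20.72 cycles in BTBR and at 21.10 to 21.43 in C57BL/6J, without overlap. Among 241 assays with 6 raw readings, 34 were earlier in every BTBR than in every C57BL/6J sample. The log2 change of miR-451 was -0.21 on the authors' normalized values (limma adjusted p = 0.640). With raw thresholds centred on each mouse's mean it was 0.90 (limma adjusted p = 0.161). Of the other 2 blood assays, miR-486 was read in BTBR alone, at 15.20 to 16.66 cycles, and miR-144 in no mouse. The part of blood in the values of the 4 assays was not tested. Of the marker assays that could be tested on the authors' scale, 0 of 3 neuronal, 1 of 2 oligodendrocyte, 0 of 1 blood, 0 of 2 myeloid, 0 of 2 choroid plexus and 1 of 3 muscle assays were lower in BTBR past the limma adjusted p of 0.05. So were miR-199a-3p and the pool B assay hsa-miR-214, listed for astrocytes but also known from mural and mesenchymal cells. Among all these assays 0 were higher. The pool A assay mmu-miR-214 could not be tested. It read 21.79 and 20.49 cycles in BTBR replicates 1 and 2, and 40 in BTBR replicate 3 and all C57BL/6J mice. Over all assays tested 35.5% were lower on this scale, and 0% when raw thresholds were centred on each mouse's mean. The endothelial miRNA miR-126, looked up after its values were seen, had mean raw thresholds of 17.03 cycles in BTBR and 18.28 in C57BL/6J and a log2 change of 0.58 that did not pass (limma adjusted p = 0.474). In whole tissue, fewer cells of a type and less miRNA per cell cannot be told apart.

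The comparison asks whether BTBR cortex holds more or less of these miRNAs than C57BL/6J cortex. On the values the authors normalized, miR-107 and miR-33a# were both lower in BTBR, by 4.04-fold and 3.38-fold. miR-103, which differs from miR-107 by 1 base, was read early in all BTBR samples and in no C57BL/6J sample. miR-378 was undetermined in all 6 mice. The change of miR-107 kept its sign on the 7 other scales tried but passed the test on none of them, with limma adjusted p of 0.105 to 0.247 and a log2 change of -0.61 without scaling. That of miR-33a# was not seen in the raw thresholds. On each of the same 7 scales at most 1 of all assays tested was lower past the adjusted p of 0.05.

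The assay for miR-103 had raw thresholds of 18.07, 17.24 and 16.57 cycles in BTBR replicates 1 to 3 (17.29 ± 0.75, SD, n = 3) and read 40 in all 3 C57BL/6J mice. In the authors' normalized table the BTBR values were 18.24, 17.80 and 16.67 cycles, and the C57BL/6J values were 40 again. So every BTBR mouse had a reading and no C57BL/6J mouse had one. An undetermined assay has no level and the panel gives no detection limit for it, so neither a fold change nor a direction is given. In the authors' deposited table the means are 17.57 in BTBR and 40 in C57BL/6J, with a difference of -22.43 cycles and an adjusted p of 0.00782, and 40 is taken there as a reading.

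**Figure D1:**
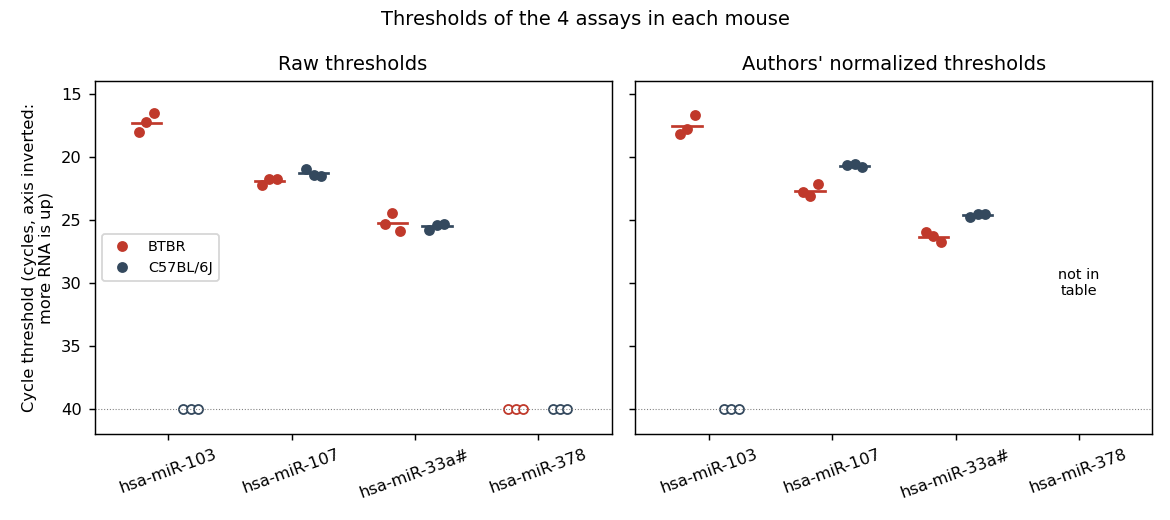
Cycle thresholds in cycles (axis inverted) of the 4 assays in each mouse, raw on the left and normalized by the authors on the right, with BTBR left of C57BL/6J, filled points for readings, open points for undetermined values at 40 and bars for means of 3 mice. miR-103 has readings in BTBR alone, miR-107 is later in BTBR in both tables, and miR-33a# overlaps between strains in the raw table but not in the normalized one.

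Readings in every BTBR mouse and in no C57BL/6J mouse were found for 30 of the 750 assays (4%), among them miR-103. Of the 30, 28 were in pool A, 7.43% of that pool, and 2 in pool B, 0.536% of that pool. The reverse, readings in every C57BL/6J mouse and in no BTBR mouse, was found for 3 assays. In mean BTBR threshold the 30 ranged from 6.71 to 29.89 cycles with a median of 18.65, and miR-103 was the 11th earliest of them. The 21 raw values under 10 cycles on the panel were counted as readings here. Among all assays detected in every BTBR sample, 50 were as early as miR-103 or earlier, itself included, and of these 37 were detected in all C57BL/6J samples and 11 in none, all 11 in pool A.

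For 6 of the 30 assays the panel holds another assay of the same miRNA and strand by name, with the species prefix ignored. These other assays show whether C57BL/6J cortex gave a reading elsewhere. In 4 of the 6 the other assay was detected in all C57BL/6J samples and in 2 in none. Those 2 were miR-200b and miR-467a, each with its other assay in pool B. The pool B assay of miR-200b read 16.17 and 24.41 cycles in BTBR replicates 2 and 3. It read 40 in BTBR replicate 1 and all C57BL/6J mice. The pool B assay of miR-467a read 40 in every mouse. For miR-143, a miRNA of smooth muscle and fat cell differentiation, the pool A assay read 21.68, 20.83 and 23.72 cycles in BTBR and 40 in C57BL/6J, but the pool B assay read 25.78, 25.83 and 27.35 in BTBR and 25.81, 25.33 and 24.86 in C57BL/6J. Both miR-143 assays bear the prefix hsa. For miR-487b the pools were the other way round and the prefixes differ. Its pool B assay, of mouse design (mmu), read 17.81, 17.03 and 18.11 in BTBR and 40 in C57BL/6J. Its pool A assay, of human design (hsa), read 18.74, 17.81 and 17.16 in BTBR and 16.76, 16.60 and 16.20 in C57BL/6J. For miR-381 both assays are in pool A, and for miR-190b the assay without C57BL/6J readings is in pool A and the other in pool B. In both cases the assay without C57BL/6J readings is of rat design (rno) and the other of human design. The part of the design in these differences was not tested. miR-103 has no other assay on the panel, and whether its missing C57BL/6J readings reflect the mice or the assay was not tested.

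**Figure D2:**
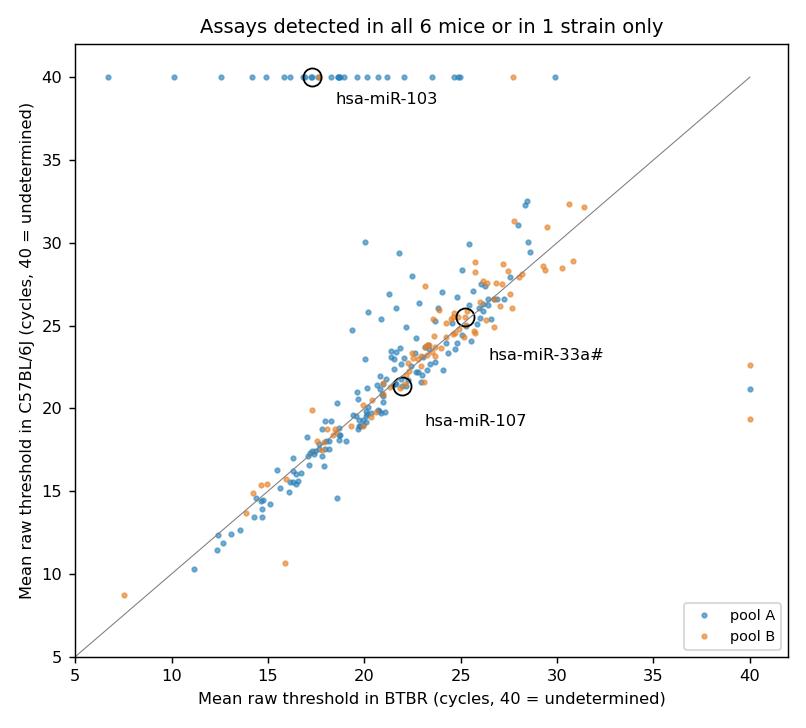
Mean raw threshold in BTBR (x, cycles) against C57BL/6J (y, cycles), 1 point per assay detected in all 6 mice or in all mice of 1 strain only, blue for pool A and orange for pool B, with 40 for undetermined and the line of equal values. miR-103 lies in the row of 30 assays at 40 on the C57BL/6J axis, 28 of them from pool A, while miR-107 and miR-33a# lie near the line.

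The assay for miR-107 had normalized thresholds of 22.83, 23.15 and 22.19 cycles in BTBR (22.72 ± 0.48, SD, n = 3) and of 20.68, 20.60 and 20.84 in C57BL/6J (20.71 ± 0.12, SD, n = 3). All BTBR values were later than all C57BL/6J values. The log2 change was -2.01 (standard error 0.34), 4.04-fold less in BTBR (limma adjusted p = 0.0265 over 231 assays). Of the 231 assays 82 were lower in BTBR past the adjusted p of 0.05 (35.5%) and the median log2 change was -1.13, so that miR-107 lay at -0.89 relative to that median and ranked 46th from the most negative. Strains that do not overlap, with BTBR later, were common on this scale too, at 109 of 189 assays with 6 values (57.7%).

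The raw thresholds of miR-107 were 22.24, 21.75 and 21.80 cycles in BTBR (21.93 ± 0.27, SD, n = 3) and 21.01, 21.42 and 21.55 in C57BL/6J (21.32 ± 0.28, SD, n = 3). The strains did not overlap here either, but the difference was 0.61 cycles, against 2.01 after normalization (exact two-sided permutation test, p = 0.1, the smallest that 3 against 3 allows). Of 241 assays with 6 raw readings, 45 were later in every BTBR than in every C57BL/6J sample (18.7%) and 34 earlier. Ranked by raw threshold within each mouse among these 241, with 1 the earliest, miR-107 stood at 127, 130 and 114 in BTBR and at 96, 99 and 109 in C57BL/6J. Its place in the order of assays was thus lower in all BTBR mice, with BTBR replicate 3 nearest to the controls. How many of the 241 assays keep the strains apart by rank was not computed, so this is not read as particular to miR-107.

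With raw thresholds centred on each mouse's mean over the 189 assays with 6 normalized values, here called the global mean, miR-107 had a log2 change of -0.79 (standard error 0.35, limma adjusted p = 0.179). The panel median was -0.18 on this scale. Here 0 of 231 assays were lower past the threshold (0%) and 1 was higher, with 69 at an unadjusted p under 0.05. On the means of detected U6 spots, an endogenous small RNA, the change of miR-107 was -1.80 (standard error 0.85, limma adjusted p = 0.201) against a panel median of -1.14, with U6 itself at 14.63, 14.05 and 15.92 cycles in BTBR and at 16.05, 16.65 and 15.48 in C57BL/6J. All 16 U6 spots were detected in each BTBR mouse, but 13, 13 and 11 of them in the C57BL/6J mice.

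The assay for miR-33a#, the strand opposite to the miR-33 guide, had normalized thresholds of 25.998, 26.30 and 26.79 cycles in BTBR (26.36 ± 0.40, SD, n = 3) and of 24.75, 24.56 and 24.51 in C57BL/6J (24.60 ± 0.13, SD, n = 3), again without overlap. Its log2 change was -1.76 (standard error 0.32), 3.38-fold less in BTBR (limma adjusted p = 0.0298). That is -0.63 relative to the panel median and the 62nd from the most negative. Both members that could be tested thus passed, on a scale where 35.5% of all assays did so in that direction.

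The raw thresholds of miR-33a# were 25.33, 24.46 and 25.88 cycles in BTBR (25.23 ± 0.72, SD, n = 3) and 25.80, 25.44 and 25.33 in C57BL/6J (25.52 ± 0.25, SD, n = 3). The strains overlapped, with BTBR replicate 2 the earliest and replicate 3 the latest of the 6 mice, and the mean was 0.30 cycles earlier in BTBR (exact two-sided permutation test, p = 0.7). By rank among the 241 assays it stood at 186, 180 and 194 in BTBR and at 176, 183 and 189 in C57BL/6J. On the global mean its log2 change was 0.12 (standard error 0.33, limma adjusted p = 0.835). It was 0.047 (standard error 0.29) with raw thresholds centred on the mean within each pool. That scale used all raw readings of 10 cycles or later, with 270 assays tested, and not only those with a reading in the authors' normalized values. The sign of this assay's change thus depends on the scaling. The level of the guide strand of miR-33, the one known to act on ABCA1, was not analysed here.

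The assay for miR-378 read 40 in all 3 BTBR and all 3 C57BL/6J mice, as did 285 of the 750 assays in total, and it is not in the normalized table of 306 assays. No statement on miR-378 in this tissue follows from that. In the authors' deposited table, miR-107 is given as 0.248-fold and miR-33a# as 0.296-fold in BTBR over C57BL/6J, with adjusted p of 0.0687 and 0.0596. Neither is past 0.05 there, although the differences of means, 2.01 and 1.76 cycles, are those found here, and 48 of the 306 assays are past it.

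The near-identical pair could be set against each other in the BTBR mice alone. There the threshold of miR-103 minus that of miR-107 was -4.18, -4.51 and -5.23 raw cycles in replicates 1 to 3, and -4.59, -5.35 and -5.53 normalized cycles, so miR-103 was the earlier in each mouse. The mean gaps were -4.64 ± 0.54 raw and -5.16 ± 0.50 normalized cycles (SD, n = 3). Each assay has its own efficiency, so the gap is a difference between thresholds and not a ratio of the miRNAs. A strain difference in this gap could not be computed, since no C57BL/6J mouse had a miR-103 reading. BTBR replicate 3 had the earliest miR-103 threshold of the strain in both tables. Its miR-107 threshold was the earliest of the strain in the normalized table and lay between those of replicates 1 and 2 in the raw table.

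A difference between assays within a mouse does not move with a shift of the whole mouse. miR-107 was set against the other assays of the group of miR-15 and miR-107 read in all 6 mice. The run GCAGCA starts at base 2 in miR-103 and miR-107 and at base 3 in the guide strands printed here, so that their seeds overlap but are not the same. The # strands counted with the group come from the other arm and are not covered by this.
mmu-miR-15a-5p: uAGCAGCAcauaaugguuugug
mmu-miR-15b-5p: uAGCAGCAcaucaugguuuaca
mmu-miR-16-5p: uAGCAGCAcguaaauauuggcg
mmu-miR-322-5p: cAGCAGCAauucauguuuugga
mmu-miR-497a-5p: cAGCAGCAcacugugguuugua
Against miR-16, a repressor of cell cycle genes, miR-107 was later by 7.49, 7.34 and 7.81 cycles in BTBR and by 6.50, 6.74 and 6.97 in C57BL/6J, without overlap and with a mean difference of 0.81. Against miR-15b it was later by 2.01, 1.94 and 1.98 cycles in BTBR and by 1.58, 1.90 and 2.56 in C57BL/6J. Those ranges overlapped. So did those against miR-15a, with means of 1.18 ± 0.62 in BTBR and 1.46 ± 0.38 in C57BL/6J, and against miR-497, with -4.08 ± 1.03 in BTBR and -4.12 ± 0.56 in C57BL/6J (SD, n = 3 each). Against miR-503# the means were -2.31 ± 0.44 in BTBR and -3.003 ± 0.80 in C57BL/6J, and against miR-33a# they were -3.29 ± 0.71 in BTBR and -4.20 ± 0.53 in C57BL/6J, both with overlap. Only the contrast with miR-16 therefore kept the strains apart among these 6. The raw thresholds of miR-107 alone kept them apart too, as did those of many assays, with 45 of 241 later and 34 earlier in BTBR. How often the difference of miR-107 from any other assay does so was not computed, so this contrast is not read as particular to miR-16.

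**Figure D3:**
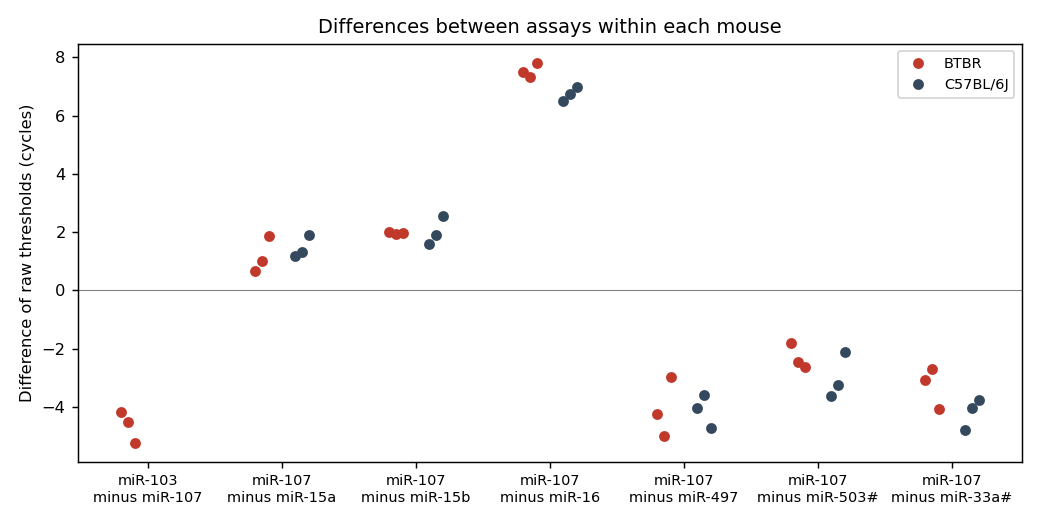
Difference of raw thresholds in cycles between the named assays within each mouse, 1 point per mouse, with BTBR left of C57BL/6J. For miR-107 minus miR-16 all BTBR points lie above the C57BL/6J points, for the other miR-107 contrasts the strains overlap, and miR-103 minus miR-107 exists for BTBR alone.

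In the group of miR-15 and miR-107, both strands counted, 7 of 13 assays could be tested on the authors' scale, and 4 were lower in BTBR, 0 higher, where 35.5% of all assays tested were lower. Those were hsa-miR-15a (log2 change -2.13), hsa-miR-15b (-1.73), mmu-miR-322 (-2.25, with 2 BTBR values) and mmu-miR-503# (-1.73), with limma adjusted p of 0.0301, 0.0298, 0.0423 and 0.0366. The median of the 7 was -1.86, against -1.13 for all assays tested. On the global mean it was -0.22 against -0.18, and 0 of the 7 passed there, with miR-15a at -1.07, miR-15b at -0.82, miR-322 at -0.77 and miR-503# at -0.10. hsa-miR-16 did not pass on the authors' scale, with a change of 0.21 (standard error 0.32).

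Of miRNAs that are known to repress ABCA1 or act on cholesterol export, as miR-33 does, 7 of 28 assays could be tested and 3 were lower, 0 higher, near the 35.5% of all assays. They were hsa-miR-19b (log2 change -1.38), hsa-miR-27a (-2.03) and hsa-miR-20b (-1.70), with limma adjusted p of 0.0301, 0.0339 and 0.0336. The median of the list was -1.38 on the authors' scale, against -1.13 for all assays, and -0.87 on the global mean, against -0.18, and there 0 of the 7 passed. A further 3 assays of the list, hsa-miR-27b, hsa-miR-106b and hsa-miR-20a, were read in every BTBR mouse and in none of C57BL/6J, as miR-103 was. All 3 are in pool A, where 7.43% of assays had that pattern, against 4% of the panel. Of other miRNAs of lipid metabolism, 6 of 15 assays could be tested and 2 were lower, hsa-miR-335# (-1.23, limma adjusted p = 0.0301) and hsa-miR-370 (-1.44, limma adjusted p = 0.0327), and 0 higher, again near the 35.5% of all assays. The median of that list was -0.94 on the authors' scale, against -1.13 for all assays, and -0.51 on the global mean, against -0.18, and there 0 of the 6 passed. Of its 15 assays, 2 were read in every BTBR mouse and in none of C57BL/6J, hsa-miR-335 and the pool A assay of hsa-miR-143. Both are in pool A, where 7.43% of assays had that pattern, against 4% of the panel. The guide strand assay hsa-miR-335 read 17.53, 16.52 and 18.73 cycles in BTBR, while its partner hsa-miR-335# was read in all mice, at 20.58, 19.79 and 19.86 in BTBR and 19.95, 19.84 and 19.82 in C57BL/6J.

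The assays whose values followed a member most closely were looked up over the 6 mice, on the global mean scale and among the other 188 assays with 6 values. For miR-107 they were hsa-miR-29a (Pearson r = 0.935), hsa-miR-19b (0.925) and hsa-miR-146a (0.918). For miR-33a# they were MMU-MIR-2135 (0.850), mmu-miR-384-5p (0.834) and mmu-miR-136 (0.810). These coefficients rest on 6 mice and are the highest of many, so they describe these samples only.

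**Figure D4:**
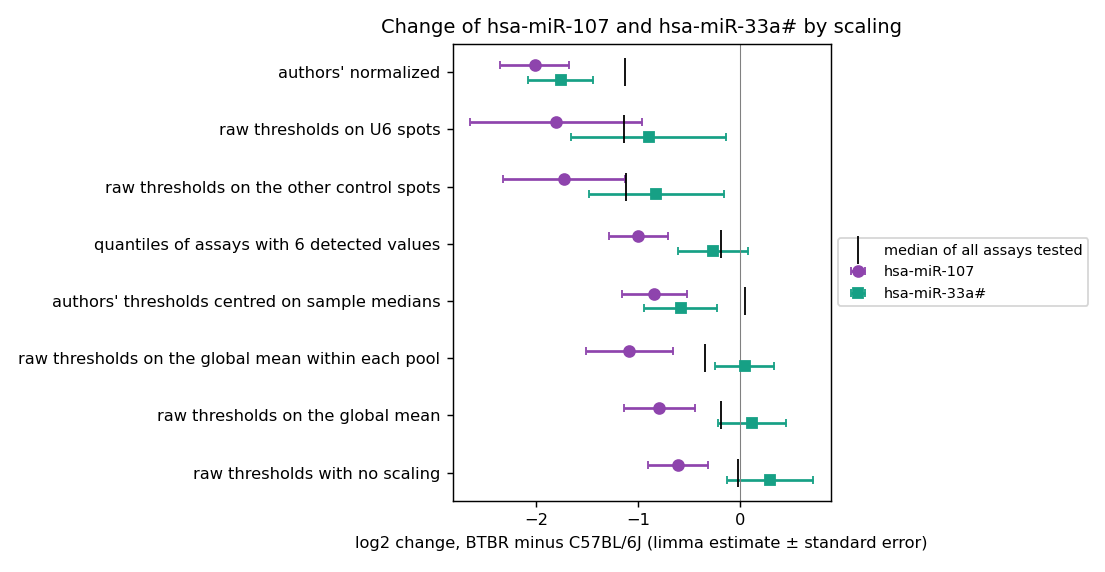
log2 change, BTBR minus C57BL/6J, of miR-107 (circles) and miR-33a# (squares) as limma estimates with standard errors under 8 scalings, with a vertical mark for the median of all assays tested. miR-107 lies below that median under all 8, while miR-33a# is below 0 under 5 of them and above 0 on the raw thresholds and on both global means.

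The call of both assays rests on several mice. Without BTBR replicate 1, BTBR replicate 2, C57BL/6J replicate 2 or C57BL/6J replicate 3, neither miR-107 nor miR-33a# passed, with limma adjusted p between 0.0544 and 0.0759. Over the whole panel 0 of 212, 8 of 213, 2 of 212 and 0 of 221 assays tested were lower past the threshold in those fits. Both members passed without BTBR replicate 3 or C57BL/6J replicate 1, where 88 of 212 and 64 of 220 assays were lower. The loss of the calls was thus not particular to these assays.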

How the data were processed

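The files hold cycle thresholds, 1 PCR per assay and mouse. Per the labels' protocols, 100 ng of column-purified total RNA (integrity number 9) was reverse transcribed, pre-amplified and run on the OpenArray panel. The sources used here do not give the software, its settings or which mice shared an array. The authors deposited raw thresholds and quantile-normalized thresholds, per the file headers, and a fold table with a ratio, a test statistic (a score), a p-value and an adjusted p-value.

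Normalized thresholds were multiplied by -1 and 40 was taken as missing. The limma 3.58.1 functions lmFit and eBayes (R 4.3.3) were run on assays read at least 2 times per strain, with a strain term only, Benjamini-Hochberg adjustment over all assays tested and a threshold of 0.05. Every member is named. Of the 3 other lists (cholesterol export, other lipid metabolism, and the group of miR-15 and miR-107), assays past the threshold are named. Added after their values were seen were miR-16, miR-126, miR-143, the listed assays read in BTBR alone and the other miRNAs with a second assay. Cell markers served as a check, and the listed endothelial names, miR-126 with an arm mark, matched no assay. Members and lists were chosen with earlier results of these data known. The fit was tested on simulated data. Precision is limited by 3 mice per strain. RefSeq names and sequences matched 3 of the 4 members.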

Additional observations from a re-analysis of the deposited data

How the results depend on the processing

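Both tested assays passed on the authors' values, where 82 of 231 assays were lower. Under 4 planned scalings 0 passed: the raw thresholds on the global mean, on the mean within each pool and on the U6 spots, and the authors' thresholds centred on sample medians. The same count, 0, came from 3 scalings added after seeing the data: raw thresholds with no scaling, quantiles of the 189 assays with 6 detected values, and the other control spots. Over all assays tested, 0 of 231, 0 of 270, 0 of 273 and 1 of 231 were lower under the 4 planned scalings, and 0 under each of the 3 added. The log2 change of miR-107, in the order in which the 7 scalings are named, was -0.79, -1.08, -1.80, -0.84, -0.61, -0.998 and -1.72. That of miR-33a# was 0.12, 0.047, -0.90, -0.58, 0.30, -0.26 and -0.82, so it turned positive under 3 of the 7. The cause was not tested. Leaving out 1 mouse at a time gave 0 to 2 member assays past the threshold, where 0 to 88 of all assays tested were lower. The changes of miR-107 ran from -2.28 to -1.80 and those of miR-33a# from -1.94 to -1.54. With 40 kept as a value 3 member assays passed, where 70 of 306 assays tested were lower and 26 higher. miR-103 was called higher there only because its C57BL/6J values of 40 were taken as levels, so no direction is read from it. miR-107 and miR-33a# also passed under the other filters on detection. With all 6 values required 81 of 189 assays were lower, and with at least 1 value in each strain 73 of 270. Strains share replicate numbers, but deviations of same-numbered mice correlated at 0.083, 0.421 and -0.0013, so the numbers were not taken as pairs. With the replicate block 2 member assays passed, at -2.01 and -1.76, where 76 of 189 assays tested were lower. The strain contrast of miR-103 minus miR-107 and its alternatives could not be run, for want of miR-103 readings in C57BL/6J.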
